A study of Mus musculus with 5 samples.

Results

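Keratin genes and keratin-associated protein (Krtap) genes were examined for H3K27me3, the trimethylated lysine 27 of histone H3, in mouse embryonic fibroblasts (MEFs). Members were the protein-coding genes of chromosomes 1 to 19 in the mm9 (NCBIM37) GENCODE annotation whose symbol begins with Krt or Krtap followed by a digit. The rule found 97 of 21418 genes, of which 51 were keratins and 46 were Krtap genes. It used names and positions only and no measured value.

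H3K27me3 ChIP-Seq peak lists of 3 libraries were used, with 1 library per group and thus no replicate spread and no test. The K27R library came from MEFs transduced with H3.3 K27R, a histone H3.3 whose lysine 27 is replaced by arginine, and served here as the reference for the other lists. The K27M library came from MEFs transduced with H3.3 K27M, the lysine to methionine change found in diffuse midline gliomas. The EZHIP library came from MEFs transduced with human EZHIP, a protein expressed in posterior fossa group A ependymomas. Both H3.3 K27M and EZHIP inhibit Polycomb Repressive Complex 2 (PRC2), the enzyme that places the mark. The constructs were delivered by lentivirus into a line that carries loxP sites at Eed, a PRC2 subunit gene, and this floxed background was shared by the 3 lines. The parental control and the EED deletion clone were not analysed here. The lists hold positions without heights, so the depth of the libraries and the strength of each peak are unknown. Intervals given below are 95% Clopper-Pearson intervals, which cover counting error only and treat genes as independent, although neighbouring genes often shared a peak.

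Keratins are the intermediate filament proteins of epithelia, and each filament pairs a type I (acidic) with a type II (basic) keratin. In the mouse nearly all type I genes lie together on chromosome 11 and the type II genes on chromosome 15, with Krt18, a type I gene, next to its type II partner Krt8. Krtap genes encode small cysteine-rich or glycine- and tyrosine-rich proteins that cross-link keratin filaments in the hair shaft. Fibroblasts are mesenchymal cells and do not build epidermal or hair keratin filaments. In cells in which a gene is silent, PRC2 can cover the gene, and CpG islands are known as places where PRC2 is recruited.

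Members up to 500000 bp apart formed 5 clusters along the chromosomes. The cluster on chromosome 11 ran from Krt222 to Krt42 over chr11:99094075-100131185 (1037.1 kb) and held 27 type I keratins and 22 Krtap genes. The cluster on chromosome 15 ran from Krt80 to Krt18 over chr15:101177875-101862457 (684.6 kb) and held 24 keratins. On chromosome 16, 19 Krtap genes from Krtap24-1 to Krtap11-1 lay in chr16:88610954-89571428 (960.5 kb). On chromosome 7, 4 Krtap5 genes from Krtap5-2 to Krtap5-4 lay in chr7:149360437-149490408 (130.0 kb), and Krtap12-1 lay alone at chr10:77183331-77184001.

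In the K27R list the start sites of 63 of the 97 members (64.9%, interval 54.6 to 74.4) lay inside a peak, beside 28.2% of all protein-coding genes. In the K27M list the start sites of 7 members (7.22%, interval 2.95 to 14.3) lay inside a peak, beside 8.94% of all genes. In the EZHIP list 14 member starts (14.4%, interval 8.12 to 23) lay inside a peak, beside 7.96% of all genes. The K27M share of the members was thus near the share of all genes, whereas the K27R and EZHIP shares were above it. Gene bodies gave the same order. A K27R peak overlapped 64 bodies (66.0%, all genes 34.2%), a K27M peak 11 (11.3%, all genes 11.3%) and an EZHIP peak 23 (23.7%, all genes 10.9%).

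The 63 starts were not 63 separate events, since they lay in 11 K27R peaks, of which 1 held 20 starts. The 7 starts of the K27M list lay in 5 peaks, and the 14 of the EZHIP list in 10. Among the 63 starts in K27R peaks, 7 (11.1%, interval 4.59 to 21.6) also lay in a K27M peak and 14 (22.2%, interval 12.7 to 34.5) also lay in an EZHIP peak. Over all genes the same shares were 31.6% of 6041 for K27M and 28.2% for EZHIP. The start sites of 49 members (50.5%, all genes 18.1%) lay in a K27R peak and in neither other list.

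**Figure D1:**
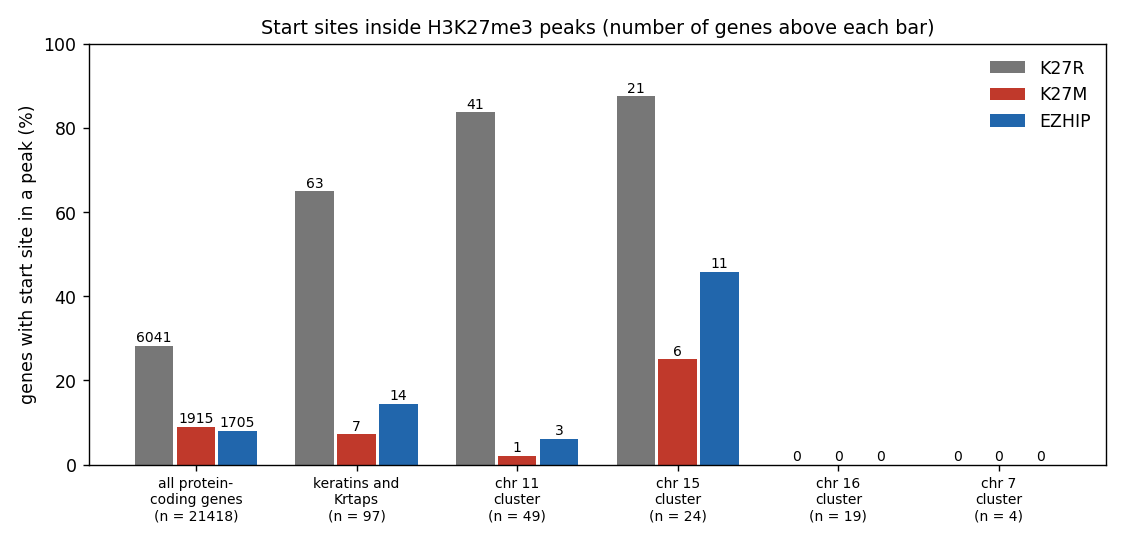
Share of genes whose start site lay inside an H3K27me3 peak (y axis, percent), in the K27R (grey), K27M (red) and EZHIP (blue) lists, for all protein-coding genes, for all members and for 4 of the 5 clusters, with the number of genes above each bar and 1 library per list. The chromosome 15 cluster had 21, 6 and 11 of 24 starts inside, the chromosome 11 cluster 41, 1 and 3 of 49, and the clusters on chromosomes 16 and 7 had none, the latter in a chromosome end where no list had a peak.

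A few promoters that the comparison turned on were printed from the mm9 genome to show how they differ in CG dinucleotides. Each line gives the 250 bases before the annotated start, 5′ to 3′ on the strand of the gene, with every CG in capitals. Krt83 (chromosome 15) and Krtap17-1 (chromosome 11) had their starts in peaks of all 3 lists. Krt10, a type I keratin of the differentiating epidermis, was in the K27R list alone. Krt8 and Krt18, partners in simple epithelia, were in no list.
Krt83 (chr15:101269236-101269485, minus strand): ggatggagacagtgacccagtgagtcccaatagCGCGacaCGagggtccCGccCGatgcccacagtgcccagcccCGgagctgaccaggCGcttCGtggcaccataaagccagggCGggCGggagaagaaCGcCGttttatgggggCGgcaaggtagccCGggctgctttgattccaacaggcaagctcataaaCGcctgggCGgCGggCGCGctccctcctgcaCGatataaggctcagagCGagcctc
Krtap17-1 (chr11:99855309-99855558, minus strand): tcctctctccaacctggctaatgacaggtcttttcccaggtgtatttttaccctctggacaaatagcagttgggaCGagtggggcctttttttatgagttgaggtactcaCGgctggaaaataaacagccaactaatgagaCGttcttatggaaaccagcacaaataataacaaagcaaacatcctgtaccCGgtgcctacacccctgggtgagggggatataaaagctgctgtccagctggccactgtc
Krt10 (chr11:99250679-99250928, minus strand): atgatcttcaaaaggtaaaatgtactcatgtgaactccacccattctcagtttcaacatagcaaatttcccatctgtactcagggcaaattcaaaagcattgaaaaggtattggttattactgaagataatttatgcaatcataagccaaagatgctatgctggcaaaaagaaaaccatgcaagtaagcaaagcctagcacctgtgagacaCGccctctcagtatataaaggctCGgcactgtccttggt
Krt8 (chr15:101834774-101835023, minus strand): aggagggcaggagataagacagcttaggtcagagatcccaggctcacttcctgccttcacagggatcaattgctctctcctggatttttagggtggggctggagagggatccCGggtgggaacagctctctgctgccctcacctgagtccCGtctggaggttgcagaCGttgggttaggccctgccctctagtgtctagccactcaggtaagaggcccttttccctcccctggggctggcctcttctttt
Krt18 (chr15:101858397-101858646, plus strand): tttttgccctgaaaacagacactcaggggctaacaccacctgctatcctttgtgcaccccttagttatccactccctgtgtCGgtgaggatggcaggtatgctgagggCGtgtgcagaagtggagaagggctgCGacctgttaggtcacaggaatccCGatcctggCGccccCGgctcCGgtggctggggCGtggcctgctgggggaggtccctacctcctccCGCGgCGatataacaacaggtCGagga

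These 5 sequences held 21 CG dinucleotides for Krt83, 4 for Krtap17-1, 2 for Krt10, 3 for Krt8 and 12 for Krt18. A promoter poor in CG could therefore lie in peaks of all 3 lists, and one with 12 could lie in none.

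The chromosome 11 cluster was nearly free of peaks in the K27M list and held a limited set in the EZHIP list. K27R peaks covered 898.0 kb of it (86.6%), in 8 peaks. The widest were chr11:99754801-100142600 (387.8 kb, with 20 member starts from Krtap31-1 to Krt42), chr11:99095801-99329800 (234.0 kb, with 9 starts from Krt222 to Krt20) and chr11:99581401-99683200 (101.8 kb, with Krtap4-8, Krtap4-9 and Krtap4-13). The K27M list had 1 peak there, chr11:99853801-99858200 (4.4 kb, 0.424% of the cluster), over Krtap17-1. The EZHIP list had 15 peaks that covered 84.0 kb (8.1%), with a median width of 4.2 kb. The widest were chr11:99131001-99150000 (19 kb) over Krt24, chr11:99227201-99239600 (12.4 kb) over Krt28 and chr11:99257801-99268400 (10.6 kb) over no member start.

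The EZHIP peaks of the chromosome 11 cluster were unevenly placed. Of their 84.0 kb, 78.4 kb lay in the 234.0 kb K27R region from Krt222 to Krt20, where they covered 33.5%, and the K27M list covered none of that region. In the 387.8 kb region with 20 starts, which holds hair keratins and the basal keratin Krt14, the EZHIP list covered 5.6 kb (1.44%) and the K27M list 4.4 kb (1.13%). The other 6 K27R regions with member starts, 18.4 to 101.8 kb wide, held no K27M or EZHIP peak. Among all 1310 autosomal K27R regions of at least 100 kb, the median covered share was 3.83% for EZHIP (upper quartile 12.2%) and 3.57% for K27M (upper quartile 13.8%).

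The chromosome 15 cluster had more coverage in both lists. K27R peaks covered 551.2 kb (80.5%) in 2 peaks. The wider, chr15:101290401-101802600 (512.2 kb), held 19 starts from Krt81 to Krt78, and chr15:101240001-101279000 (39.0 kb) held Krt7 and Krt83. The K27M list had 9 peaks over 100.2 kb (14.6%), with a median width of 4.6 kb. The widest were chr15:101665401-101714800 (49.4 kb) over Krt1 and Krt77, chr15:101612201-101634600 (22.4 kb) over Krt72-ps and Krt73, and chr15:101452001-101458000 (6.0 kb) over no member start. The EZHIP list had 28 peaks over 253.0 kb (37.0%), with a median width of 5.3 kb. The number and width of peaks depend on how close peaks were joined, and the gaps left between neighbours differed between the lists. Of these gaps, 898 between EZHIP neighbours and 311 between K27R neighbours were under 5000 bp, against 0 in K27M. With peaks up to 10000 bp apart merged, there were 13 EZHIP (widest 173.4 kb) and 9 K27M peaks (widest 49.4 kb) on chromosome 15, and 8 EZHIP (widest 46.2 kb) and 1 K27M peak on chromosome 11. Without merging, the widest EZHIP peaks on chromosome 15 were chr15:101645601-101709200 (63.6 kb) over Krt2, Krt1 and Krt77, chr15:101605201-101638200 (33 kb) over Krt72-ps and Krt73, and chr15:101377601-101406800 (29.2 kb) over Krt82 and Krt75.

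Nearly all of the K27M coverage on chromosome 15 lay inside the EZHIP coverage. The lists shared 96.4 kb, which was 96.2% of the K27M length and 38.1% of the EZHIP length. Each of the 9 K27M peaks met an EZHIP peak. Over all genes, 1458 of the 1915 starts in K27M peaks were also in EZHIP peaks. The shared length over the whole genome was not computed. In the 512.2 kb region the K27M list covered 18.5% and the EZHIP list 48.5%, both above the upper quartile of the wide K27R regions given above. The EZHIP list covered 2.52 times the length of the K27M list in this cluster. Over the rest of chromosome 15 the same ratio was 1.55, and over the other autosomes it ran from 0.602 to 1.07, so the chromosome as a whole stood above the others. In the chromosome 11 cluster the ratio was 19.1, from 1 K27M peak, against 0.939 over the rest of that chromosome.

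**Figure D2:**
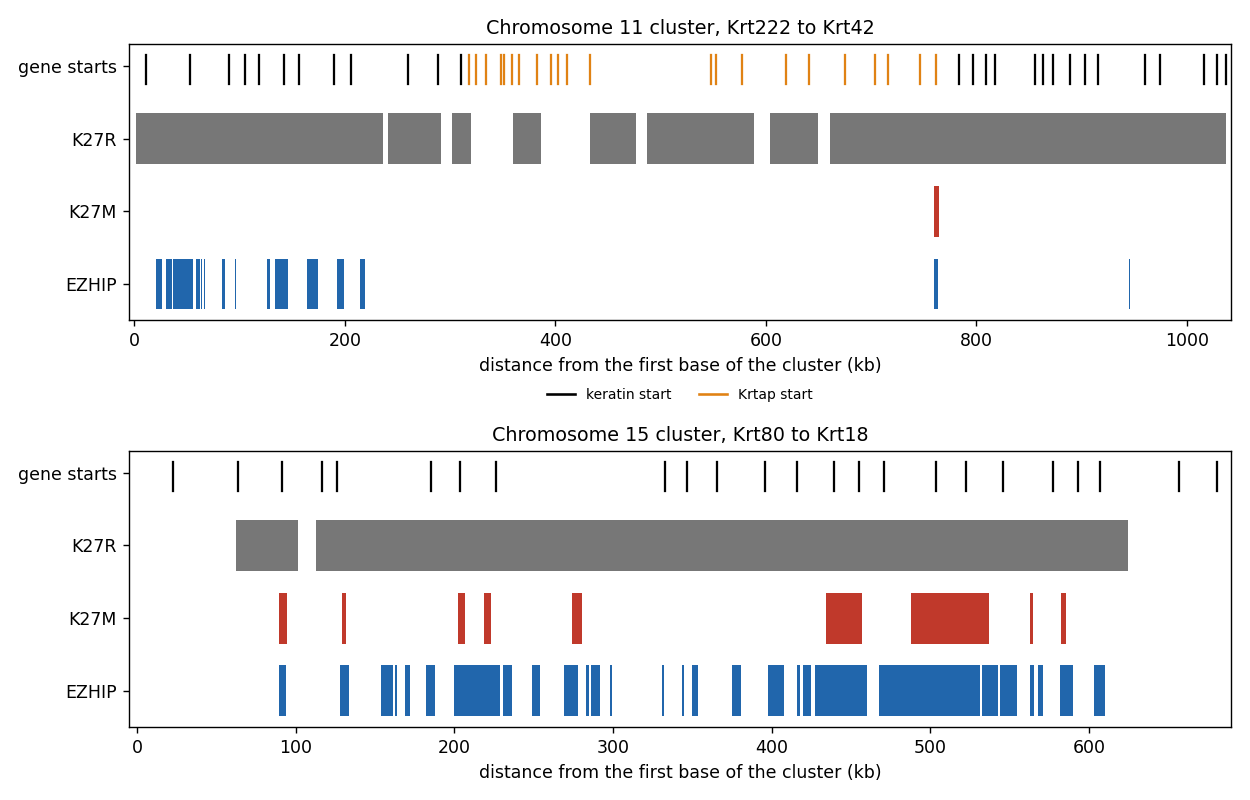
Peaks of the K27R (grey), K27M (red) and EZHIP (blue) lists along the chromosome 11 cluster (top) and the chromosome 15 cluster (bottom), drawn to scale against the distance from the first base of the cluster (x axis, kb), with ticks for the start sites of keratins (black) and Krtap genes (orange). On chromosome 11 the EZHIP peaks sit mainly in the K27R region at the left and the single K27M peak lies over Krtap17-1, whereas on chromosome 15 the 9 K27M peaks lie over stretches that also hold EZHIP peaks.

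The 7 starts in both the K27M and the EZHIP list (7.22%, all genes 6.81%) were those of Krtap17-1, a hair shaft Krtap, and of 6 type II keratins of chromosome 15. Krt1 (ENSMUSG00000046834.6), the type II keratin of the differentiating epidermis, and its neighbour Krt77 (ENSMUSG00000067594.5) lay in a 49.4 kb K27M peak and a 63.6 kb EZHIP peak. Krt73 (ENSMUSG00000063661.5), a keratin of the inner root sheath of the hair follicle, and Krt72-ps, annotated as protein-coding although its symbol marks a pseudogene, lay in a 22.4 kb K27M peak and a 33 kb EZHIP peak. Krt83 (ENSMUSG00000047641.6), a hair cortex keratin, lay in a 5.2 kb K27M peak and a 4.8 kb EZHIP peak. Krt82, a hair cuticle keratin, lay in a 4.4 kb K27M peak and a 29.2 kb EZHIP peak. Krtap17-1 (ENSMUSG00000078252.1) lay in a 4.4 kb K27M peak and a 4.2 kb EZHIP peak, which is the only place in the chromosome 11 cluster where both lists had a peak over a member start.

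Another 7 starts (7.22%, all genes 1.15%) lay in an EZHIP peak and in no K27M peak. On chromosome 11 these were Krt24, in a 19 kb peak, and Krt28, an inner root sheath keratin, in a 12.4 kb peak. On chromosome 15 they were Krt75, a keratin of the companion layer of the hair follicle, in a 29.2 kb peak, Krt2, an epidermal keratin of the uppermost living layers, in a 63.6 kb peak, Krt76, a keratin of the oral palate, in a 10.8 kb peak, Krt78 in a 6.6 kb peak and the hair keratin Krt84 in a 5.4 kb peak. No start lay in a K27M peak and outside the EZHIP list (0 of 97, which allows a share of up to 3.73%), beside 2.13% of all genes. The members thus differed between the lists in 1 direction only in the lists as deposited (with peaks of at least 5000 bp, Krt83 was in K27M alone), whereas over all genes more starts were in the K27M list alone (457) than in the EZHIP list alone (247). With 1 library per group, this difference between the lists has no replicate check. Most of the starts in the EZHIP list alone lay on chromosome 15. Outside the keratin cluster of that chromosome, EZHIP peaks covered 1.55 times the K27M length, against 0.602 to 1.07 times on the other autosomes. Whether the direction is particular to the members was not tested.

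Coverage of the gene bodies showed the same direction on chromosome 15. Of the 24 bodies, EZHIP peaks covered more than K27M peaks in 13, K27M peaks covered more in 1 (Krt83, 30.6% against 27.8%), both covered the same length above 0 in 3 and neither covered any in 7. The 3 bodies covered whole by both were Krt1, Krt77 and Krt73. Krt75 and Krt72-ps were covered whole by EZHIP peaks and to 43.6% and 45.6% by K27M peaks. Krt76 was covered to 86.0% by EZHIP peaks and to 0.222% by K27M peaks. Krt84, Krt2 and Krt78 were covered to 41.7%, 40.1% and 44.9% by EZHIP peaks and not by K27M peaks. The bodies of all genes were not compared in this way. Over the rest of chromosome 15, EZHIP peaks covered 1.55 times the K27M length. Whether the direction in the bodies is particular to the members was not tested.

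Some bodies met a peak that did not reach the start. Krt79 was covered to 72.8% by EZHIP and 29.1% by K27M peaks, and Krt86, a hair cortex keratin, to 67.8% and 46.1%. Krt6b and Krt6a, keratins of activated and wounded epidermis, were covered to 32.9% and 27.4% by EZHIP peaks alone. Krt74, an inner root sheath keratin, was covered to 9.85% and Krt4, a keratin of the oesophagus and other mucosae, to 0.548%. On chromosome 11 the same held for Krt25 (40.3%), Krt26 (12.1%) and Krt20 (31.6%), with no K27M coverage. Many peaks lay apart from the members altogether. Of the 28 EZHIP peaks of chromosome 15, 7 held a member start, 7 touched a body without its start and 14 touched no member, and on chromosome 11 these numbers were 3, 3 and 9 of 15.

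**Figure D3:**
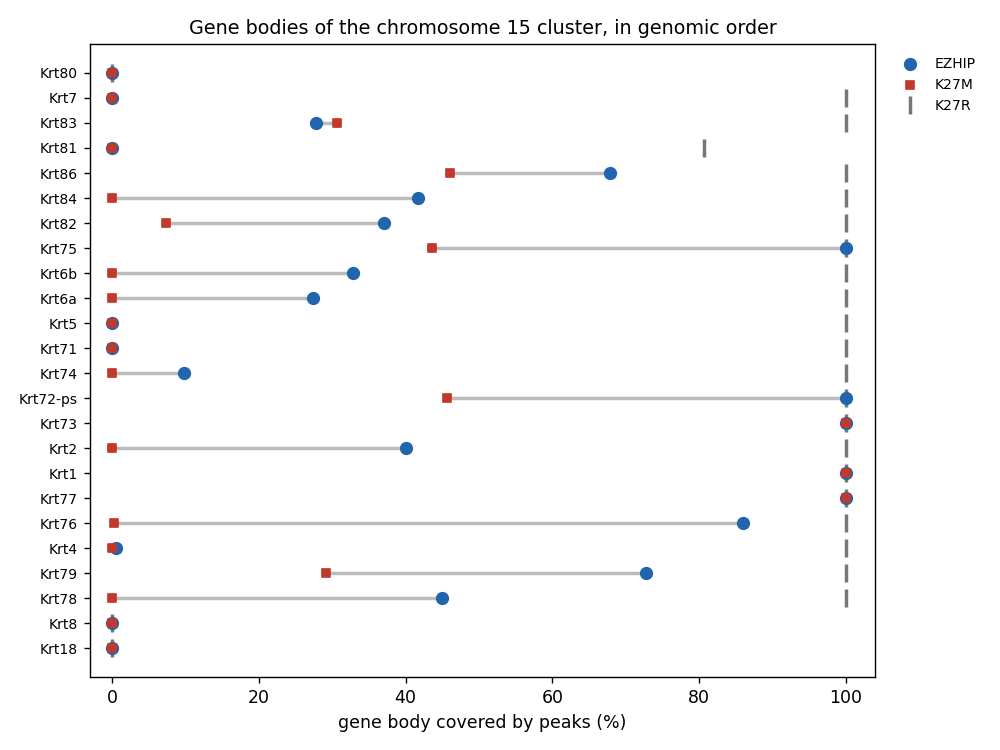
Share of each gene body covered by peaks (x axis, percent) for the 24 members of the chromosome 15 cluster in genomic order, with EZHIP as blue circles, K27M as red squares, K27R as grey ticks and a line joining the K27M and EZHIP values. EZHIP lies to the right of K27M in 13 genes and to the left in Krt83, and Krt80, Krt8 and Krt18 are at 0 in every list.

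By type, keratins and Krtap genes differed in the K27R list. The starts of 48 of 51 keratins (94.1%) and of 15 of 46 Krtap genes (32.6%) lay in K27R peaks. All 21 keratins of epidermis and other stratified epithelia were inside, with 2 starts in the K27M and 7 in the EZHIP list. The 7 inner root sheath keratins were all inside, with 1 and 2 starts kept. The 5 type II hair keratins of chromosome 15 were inside with 2 and 3 starts kept, whereas the 9 type I hair keratins of chromosome 11 were inside with no start and no body touched in either list. Type I and type II hair keratins are partners in the same hair shaft filaments.

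The 3 keratins outside the K27R list were at the ends of the chromosome 15 cluster. Krt80 was 39.45 kb, Krt8 32.17 kb and Krt18 56.05 kb from the nearest K27R peak. Krt8 and Krt18 are the keratins of simple epithelia and of the early embryo, and Krt80 was grouped with them here. The other simple epithelial keratins, Krt7, Krt19, Krt20 and Krt23, all had their starts in K27R peaks. None of these 7 starts lay in a K27M or EZHIP peak, and Krt20 was the only body touched (31.6% by EZHIP). No expression was measured in these libraries.

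Of 3 pairs of partner keratins, 2 shared their state and 1 did not (pairs named for their known roles, with the values already seen). The start of Krt1 was in all 3 lists, whereas Krt10, which pairs with it, was in the K27R list alone, 199.08 kb from the nearest K27M peak and 7.12 kb from the nearest EZHIP peak. Krt5 and Krt14, the pair of the basal layer, were both in the K27R list alone. Krt5 was 68.88 kb from a K27M peak and 9.68 kb from an EZHIP peak, and Krt14 was 148.74 kb and 28.66 kb away. Krt8 and Krt18 were both in no list.

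The Krtap genes split by chromosome. On chromosome 11, 14 of 22 starts lay in K27R peaks, and 1, that of Krtap17-1, lay in the K27M and EZHIP lists. The 8 outside K27R lay between K27R peaks, at 0.95 kb (Krtap1-3), 4.17 kb (Krtap3-2), 8.63 kb (Krtap1-4), 8.75 kb (Krtap4-1), 11.27 kb (Krtap1-5), 13.94 kb (Krtap3-1), 15.6 kb (Krtap4-2) and 21.2 kb (Krtap4-7) from the nearest. None of the 23 Krtap starts on chromosomes 7 and 16 lay in a peak of any list. On chromosome 16 the only contact was a 1.2 kb K27R peak inside Krtap15 (12.9% of its body), 5.74 kb from its start, and the nearest EZHIP peaks were 320.92 to 948.58 kb from the starts. On chromosome 7 the nearest K27R peak was 4567.91 to 4695.41 kb away. No list had a peak in the last 7730.6 kb of chromosome 7, a stretch with 167 protein-coding genes, whereas on the other autosomes the last peak lay 0.1 to 1664.7 kb from the end, followed by at most 40 genes. The 4 Krtap5 genes lie in that stretch, so their lack of a peak cannot be told apart from a stretch not covered by the lists. Without these 167 genes, the shares of the other 93 members and of all genes were 67.7% and 28.4% for K27R, 7.53% and 9.01% for K27M, and 15.1% and 8.02% for EZHIP. Krtap12-1 on chromosome 10 lay in a K27R peak of 317.2 kb, chr10:77119001-77436200, and was 18.73 kb from a K27M and 9.47 kb from an EZHIP peak. In that peak the K27M list covered 98.0 kb (30.9%) and the EZHIP list 72.8 kb (23%), so K27M covered more there, unlike in the wide regions of chromosomes 11 and 15.

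Many Krtap genes are near-copies of each other, and reads that map to several places are often dropped, so the share of 31-base words within 5 kb of each start that occur once in the genome was computed. It was lowest (43.7%) for Krtap4-13, whose start lay in a K27R peak. The median was 87.4% for the 14 chromosome 11 Krtap genes inside K27R peaks, 89.8% for the 8 outside, 92.9% on chromosome 16 and 81.5% on chromosome 7, against 94.4% for the 51 keratins. On chromosome 15 it was 95.7% for the 11 starts in EZHIP peaks and 92.7% for the 10 in K27R peaks alone. The part of read mapping in the calls was not tested beyond these values.

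Other genes that lie among the members were counted in the same lists. Nearly all of those have symbols that begin with Gm or end in Rik, which the symbol rule cannot assign to a family. Whether some are keratin or Krtap genes was not tested. On chromosome 11, 29 of 34 other protein-coding genes among the members had their start in a K27R peak and none in the K27M or EZHIP list. On chromosome 15 all 4 were in K27R and 1 (4732456N10Rik) was in the EZHIP list. On chromosomes 16 and 7 none of 14 and none of 5 lay in any list. Within 100 kb of Krtap12-1 on chromosome 10, 9 of 11 other genes were in K27R, 4 in K27M and 1 in EZHIP peaks, which was more in the K27M than in the EZHIP list. Within 100 kb of the ends of the other clusters, none of the 6 neighbours on chromosome 15 was in a list, and on chromosome 11 Ccr7, Gast and Hap1 were in K27R peaks while Smarce1, Eif1 and Jup were in none.

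Member promoters were poor in CG. In the 300 bases from 250 before to 50 after the start, the median was 3.0 CG (range 0 to 23) against 12.0 over all genes, and a CpG island overlapped 3 of 97 promoters (3.09%, Krt27, Krt83 and Krt18) against 49.0%. Starts in no list and starts in K27R alone had a median of 3.0 CG each. The 7 starts in the EZHIP list alone had a median of 6.0 (range 3 to 10), and the 7 in both lists also 6.0 (range 3 to 23). State and type of gene were mixed here. The median was 5.0 CG for all keratins and 2.0 for all Krtap genes, and the EZHIP list held 13 keratin starts and 1 Krtap start. Over all genes the medians were 14.0 for starts in no list, 5.0 for K27R alone, 11 for EZHIP without K27M and 18 for both, and 67.1% of the last set had an island. Of the 7 members in both lists, Krt83 had an island.

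Genes with and without an island were counted apart. Among all 3764 genes with the start in K27R and no island, 17.3% were in the K27M list and 16.1% in the EZHIP list, and among the 61 such members the shares were 9.84% (6) and 21.3% (13). These counts are small and the starts shared peaks, so no difference from all genes is read from them. With an island the shares over all genes were 55.4% and 48.1%. The chromosome 15 cluster held 9 islands, 7 in K27R peaks and 4 each in K27M and EZHIP peaks. These lists covered 80.5%, 14.6% and 37.0% of the cluster. An island lay in 3 of the 28 EZHIP peaks and in 3 of the 9 K27M peaks. On chromosome 11 there were 11 islands, 6 in K27R peaks and none in the other lists, so none of the 15 EZHIP peaks held one. There the K27R, K27M and EZHIP lists covered 86.6%, 0.424% and 8.1% of the cluster.

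The letters TATAAA, a core element that some promoters carry shortly before the start, stood on the strand of the gene in 61 of 97 member promoters (62.9%), against 9.08% of all promoters of that length. On either strand the shares were 64.9% and 13.5%. They stood in 38 of 46 Krtap genes, 7 of 9 type I hair keratins, 6 of 7 inner root sheath keratins, 7 of 21 stratified keratins and 1 of 5 type II hair keratins. Of the starts in no list, 25 of 34 had the letters, of those in K27R alone 32 of 49, of those in EZHIP alone 2 of 7 and of those in both 2 of 7. Over all genes the shares in these states were 8.95%, 11.4%, 6.88% and 5.69%. The counts by state also mix the types, since 23 of 51 keratins had the letters against 38 of 46 Krtap genes. A match of letters is a description of the sequence and not a site in use.

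**Figure D4:**
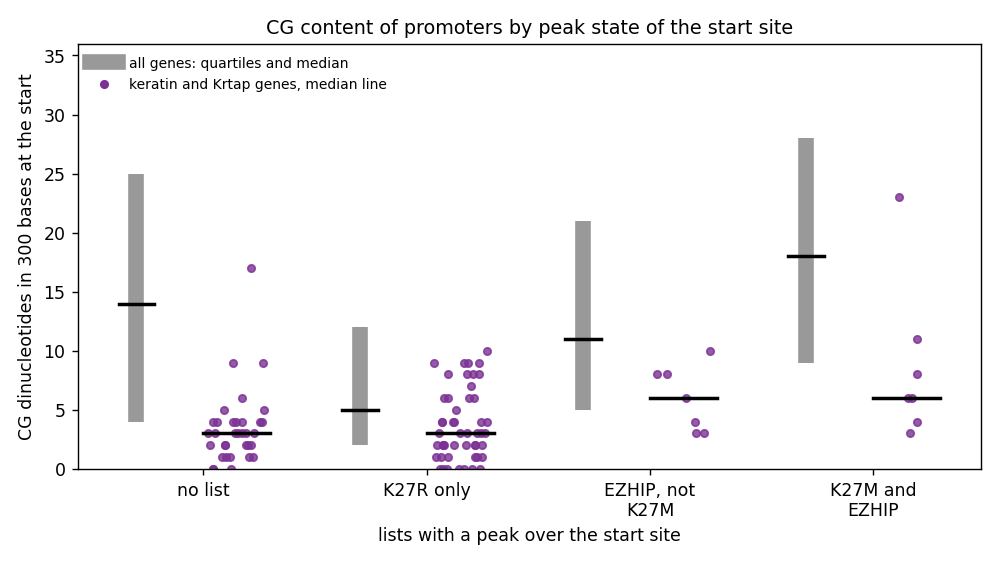
Number of CG dinucleotides in the 300 bases around the start (y axis) by the lists that have a peak over the start (x axis), with grey bars and lines for the quartiles and median of all genes and points with a median line for the members. Members lie low in every state, with medians of 3.0, 3.0, 6.0 and 6.0, and Krt83 with 23 is the highest.

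Other gene lists of the same tissues, named from textbook knowledge, were counted in the same way, beside 28.2%, 8.94% and 7.96% of all genes in the K27R, K27M and EZHIP lists. Of 15 other intermediate filament genes, 8 were in K27R (53.3%), 5 in K27M (33.3%) and 4 in EZHIP peaks (26.7%), and the neurofilament genes Nefl, Nefm and Nefh and the internexin gene Ina were in both. Of 52 gene records of the epidermal differentiation complex, which encodes proteins of the cornified layer, 17, 3 and 3 were inside (32.7%, 5.77% and 5.77%, near the shares of all genes), the 3 being Tchh, Lor and S100a9. Of 19 desmosome genes, whose products anchor keratin filaments, 6, 2 and 2 were inside (31.6%, 10.5% and 10.5%, also near those shares), with Dsp and Pkp1 in both. Of 27 epithelial regulators and junction genes, 16, 9 and 7 were inside (59.3%, 33.3% and 25.9%), with Grhl2 and Esrp1 in peaks of 32.2 and 26.2 kb in the K27M list and 12.4 and 19.4 kb in the EZHIP list. Of 23 hair follicle genes, mostly regulators, 18, 13 and 12 were inside (78.3%, 56.5% and 52.2%), among them Hoxc13, a regulator of hair keratin genes, in a K27M peak of 116.8 kb and an EZHIP peak of 105.8 kb. That list also holds the enzyme genes Tgm3 and Padi3. In it, 4 starts were in K27R peaks alone, those of Tgm3, Padi3, Prdm1 and Edar. Of 12 fibroblast markers, 1 (Pdgfra) was in K27R, and it was also in both other lists.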

How the data were processed

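H3K27me3 ChIP-Seq was done on MNase-digested, crosslinked chromatin of MEFs. By the study's methods, the authors aligned reads with bowtie to mm9 and to a spike-in genome and called broad peaks with MOSAiCS-HMM in each library. The submitters' processing notes name Bowtie 1.0.0 and deepTools. The deposited lists hold only the chromosome, start and end of each peak, on a grid of 200 bp, and were used as positions. The closest neighbours lay 0 bp apart in K27R, 5200 bp in K27M and 1200 bp in EZHIP, so joining of close peaks may have differed between the lists. The study's methods give 1 maximum gap for joining, wider than these, so the lists may not share 1 setting.

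Groups were taken from the sample titles. Start sites were the 5′ ends of GENCODE vM1 gene records, and a gene was called when its start lay in a peak or its body overlapped one by at least 1 bp. CpG islands were segments over 200 bp that scored 17 per CG and -1 per other base, had a CG observed to expected ratio above 0.6 and a G+C content of 50% or more. The interval and island code was tested on simulated data. Python 3.11.15, numpy 2.4.6, pandas 2.3.3, scipy 1.17.1 and matplotlib 3.10.9 were used.

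Members and gene lists were chosen with earlier results of these data known. Genes were named when the start lay in a K27M or EZHIP peak, when they were simple epithelial keratins, first or last in a cluster, outside K27R near its edge, or had a body met by a peak. Up to 4 genes per comparison list and the 3 widest peaks per list and cluster were named. For the hair follicle list, the genes in K27R alone were named in addition. Of the 50 symbols listed for the epidermal differentiation complex 48 were found, some with more than 1 record, as were 27 of 29 epithelial and 23 of 24 hair follicle symbols. Alternatives were the distance to a peak, annotated transcript starts, a minimum peak width, merged peaks, the share of the body covered and the distance that forms a cluster. No test was run, since each group had 1 library.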

Additional observations from a re-analysis of the deposited data

How the results depend on the processing

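Starts of members in K27R peaks numbered 63 to 65 and starts in K27M peaks 5 to 9 under every alternative tried, and the 5 clusters stayed 5 when members up to 1000000 bp apart were joined. Leaving out the genes after the last peak of chromosome 7 was an alternative chosen after seeing the data. It could not change the counts of 63, 7 and 14, since no list had a peak there, and only the shares moved. Counting starts within 5 kb of a peak raised the EZHIP count from 14 to 23 (23.7% against 11.5% of all genes) and the count in EZHIP but not K27M from 7 to 14. With peaks of at least 5000 bp, 1 start (Krt83, whose EZHIP peak is 4.8 kb wide) was in K27M and not EZHIP, and K27M peaks met 6 bodies. Covered to at least 50%, 4 bodies were left for K27M and 11 for EZHIP. Under these alternatives, starts of all genes were counted for each list only. The counts in EZHIP but not K27M and the counts of bodies thus have no share of all genes beside them. On chromosome 11 the covered share was 88.1% for K27R and 10.3% for EZHIP with peaks up to 10000 bp apart merged, and 0% for K27M and 6.21% for EZHIP with peaks of at least 5000 bp. On chromosome 15 it was 12.1% for K27M and 32.9% for EZHIP with peaks of at least 5000 bp, and 45.4% for EZHIP with peaks merged. EZHIP covered more than K27M in both clusters under all of these alternatives. The lists give no depth or height, so a missing peak cannot be told apart from a weak one, and differences between lines, libraries and calling cannot be told apart. No paired analysis was possible because each group has 1 library and the labels carry no replicate numbers.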
